A study of Arabidopsis thaliana with 12 samples.

Results

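The LRR-I receptor-like kinases of Arabidopsis thaliana were followed through seedlings with and without a mutation in HISTONE DEACETYLASE 9 (HDA9) and with and without abscisic acid (ABA). The family was taken as a list of 41 Arabidopsis gene identifiers, of which 36 have a row among the 23911 genes of the count table. AT1G51810, AT1G51910, AT2G04300, AT2G19230 and AT4G29450 were not analysed here. Another 5 had too few counts to be tested (AT1G49100, AT2G14440, AT2G19210, AT3G46340 and AT3G46350), which left 31 members among 20924 tested genes. The genes follow family membership, and the family was taken as selected on the ABA log2 fold changes of these libraries, where AT5G59680 and AT1G05700 were already known as strong decreases. The ABA values are therefore given as a description without p-values. A call after ABA only marks a value that passed the threshold and is not a test of the family. The genotype values, from the same libraries, are given with their tests.

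A receptor kinase of this family carries a malectin-like domain and a few leucine-rich repeats outside the cell, a single membrane span and a kinase domain inside. Such receptors sit at the plasma membrane and pass signals from the cell surface to the cytoplasm. FRK1 (FLG22-INDUCED RECEPTOR-LIKE KINASE 1) is widely used as a marker of immune signalling started by bacterial flagellin, and IOS1 (IMPAIRED OOMYCETE SUSCEPTIBILITY 1) contributes to pattern-triggered immunity. RHS6 and RHS16 were named for root-hair-specific expression, and MEE39 for a mutant whose embryos arrest. HDA9 removes acetyl groups from histones, and ABA is the hormone of drought and seed dormancy.

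Seedlings aged 2 to 3 weeks, grown on 1% sucrose under 16 h light and 8 h dark at 20 °C, were profiled by poly(A) RNA sequencing in 4 groups of 3. These were Col-0 wild type without ABA, Col-0 sprayed with 50 µM ABA and taken after 4 h, the mutant line hda9-1 without ABA, and hda9-1 with the same spray. Sample titles gave the groups, because the treatment field lists no ABA for all wild-type samples and ABA for all hda9-1 samples. The labels list no mock spray, so the effect of ABA and that of the elapsed 4 h cannot be told apart. hda9-1 is 1 mutant allele, and the spray protocol mentions 8 buds without saying what was pooled. The sample titles call each replicate a Bio Rep, but nothing in the labels says that replicates came from separate cultures. How much of the spread behind each p-value is biological is therefore not known. Libraries held 42703802 to 52820930 counts and detected 21510 to 22189 genes. Replicates 1 and 3 of hda9-1 with ABA stood apart in how counts depended on gene length. The median deviation of long genes (2368 nt or more) minus that of short genes (1273 nt or less) was -0.40 and -0.44 log2 units in them, against 0.14 in their partner replicate 2 and -0.10 to 0.25 in the other 9 libraries. The tested members are long, with a median of 3013 nt against 1766 nt over all tested genes. HDA9 transcript (AT3G44680) in hda9-1 was 32.9% of wild type without ABA and 31.2% with ABA. The 8 leaf markers and the 16 root hair markers used to check the tissue had counts in every group.

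Most of the family lies in tandem. With a gap of at most 50 kb between neighbours, 31 of the 41 listed genes fell into 7 clusters and 10 stood alone. The largest array holds 12 members, from AT1G51790 to AT1G51910, within 81.8 kb of chromosome 1 (chr1:19206615-19288385 in TAIR10.1), 10 of which were tested. The other clusters hold 2 to 5 members, among them AT2G28960 to AT2G29000 on chromosome 2 and MEE39 to AT3G46400 on chromosome 3. Coding sequences of the 41 genes were 43.7% to 94.6% identical over 820 pairs, with a median of 58.3%. For 26 genes the closest relative lay in the same cluster. AT2G14440 and AT2G14510 were the closest pair, at 94.6%. Stretches of 75 nt, the read length, were shared exactly with another gene in 14 members. MEE39 shared the largest part, 16.7% of its windows, with AT3G45920, followed by AT2G14440 at 8.71% and AT2G14510 at 7.99%, which share windows with each other. Counts of those 3 genes are uncertain to that extent.

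The 250 bases upstream of the annotated start are shown for 7 members: the 5 with the deepest log2 fold changes after ABA in wild type among those called and at 1 CPM or more, the member that rose, and FRK1. They come from the RefSeq assembly TAIR10.1 and read 5′ to 3′ on the strand of the gene. Capitals mark the W-box, the element bound by WRKY factors, searched as TTGACC or TTGACT on both strands, so that GGTCAA and AGTCAA also count, and in AT4G20450 the core of the ABA-responsive element, ACGTG or CACGT.
AT1G05700 (chr1:1709423-1709672, plus strand): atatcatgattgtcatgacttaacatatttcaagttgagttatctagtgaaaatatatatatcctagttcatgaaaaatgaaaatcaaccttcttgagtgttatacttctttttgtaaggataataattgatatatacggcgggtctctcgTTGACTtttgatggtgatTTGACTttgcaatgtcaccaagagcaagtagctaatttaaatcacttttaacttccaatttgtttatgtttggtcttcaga
AT5G59680 (chr5:24046262-24046511, plus strand): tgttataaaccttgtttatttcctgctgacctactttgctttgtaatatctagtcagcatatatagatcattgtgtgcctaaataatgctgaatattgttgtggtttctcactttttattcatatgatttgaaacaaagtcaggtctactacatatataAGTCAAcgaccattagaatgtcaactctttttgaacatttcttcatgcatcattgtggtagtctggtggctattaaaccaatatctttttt
MEE39 (chr3:17025070-17025319, minus strand): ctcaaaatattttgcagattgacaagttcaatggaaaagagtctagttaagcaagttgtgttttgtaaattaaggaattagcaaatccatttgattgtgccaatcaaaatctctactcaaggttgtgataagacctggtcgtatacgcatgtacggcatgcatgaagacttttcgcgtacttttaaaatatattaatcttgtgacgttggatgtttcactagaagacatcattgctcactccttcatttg
AT4G20450 (chr4:11029091-11029340, minus strand): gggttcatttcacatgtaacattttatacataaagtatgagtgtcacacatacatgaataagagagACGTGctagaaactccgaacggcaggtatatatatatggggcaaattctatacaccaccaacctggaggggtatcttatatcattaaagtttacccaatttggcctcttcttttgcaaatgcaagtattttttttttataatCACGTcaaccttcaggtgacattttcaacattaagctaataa
AT2G28970 (chr2:12443471-12443720, plus strand): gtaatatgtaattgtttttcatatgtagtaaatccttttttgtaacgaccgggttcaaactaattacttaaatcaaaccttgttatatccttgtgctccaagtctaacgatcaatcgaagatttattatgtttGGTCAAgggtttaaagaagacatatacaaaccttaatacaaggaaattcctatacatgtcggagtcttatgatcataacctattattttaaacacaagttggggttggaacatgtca
AT1G51805 (chr1:19225798-19226047, minus strand): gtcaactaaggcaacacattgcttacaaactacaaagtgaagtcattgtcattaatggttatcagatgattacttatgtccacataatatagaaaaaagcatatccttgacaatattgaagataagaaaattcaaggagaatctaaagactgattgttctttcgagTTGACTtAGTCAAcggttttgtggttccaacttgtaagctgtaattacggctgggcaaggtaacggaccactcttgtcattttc
FRK1 (chr2:8329945-8330194, minus strand): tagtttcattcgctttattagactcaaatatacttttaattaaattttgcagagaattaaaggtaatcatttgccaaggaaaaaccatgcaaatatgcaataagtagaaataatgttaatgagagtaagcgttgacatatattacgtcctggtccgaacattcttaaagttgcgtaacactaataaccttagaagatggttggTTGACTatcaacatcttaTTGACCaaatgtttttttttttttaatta
The upstream windows of AT1G05700, AT1G51805 and FRK1 held 2 W-boxes, those of AT5G59680 and AT2G28970 held 1 and those of MEE39 and AT4G20450 held 0. The member that rose after ABA and some of those that fell thus both carried the element. A W-box stood in 19 of 41 listed members (46.3%), against 28.4% of 27444 protein-coding genes. The core of the ABA-responsive element, ACGTG on either strand, stood in 11 of 41 (26.8%), against 22.9% of all. The G-box CACGTG, which contains that core, was found in 0 of 41, against 6.49% of all. These matches describe the letters of the windows and not binding.

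In wild-type seedlings without ABA, levels per length spread widely across the family. Values are CPM, counts scaled to library size, divided by the length in kb of all annotated exons of the gene merged. Of the 36 members, 23 lay above 1 CPM per kb. AT1G51830 was highest at 29.0 ± 4.19 CPM per kb (SD, n = 3). It was followed by AT1G51850 at 11.5 ± 0.734 and AT1G51805 at 11.4 ± 0.826, which did not differ beyond their spread. IOS1 at 7.91 ± 1.27 and AT1G51860 at 7.55 ± 0.736 came next and likewise overlapped. These 5 genes all belong to the chromosome 1 array. At the low end, AT2G14440 had 3 counts and AT2G19210 and AT3G46350 had 4 each over all 12 libraries.

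**Figure D1:**
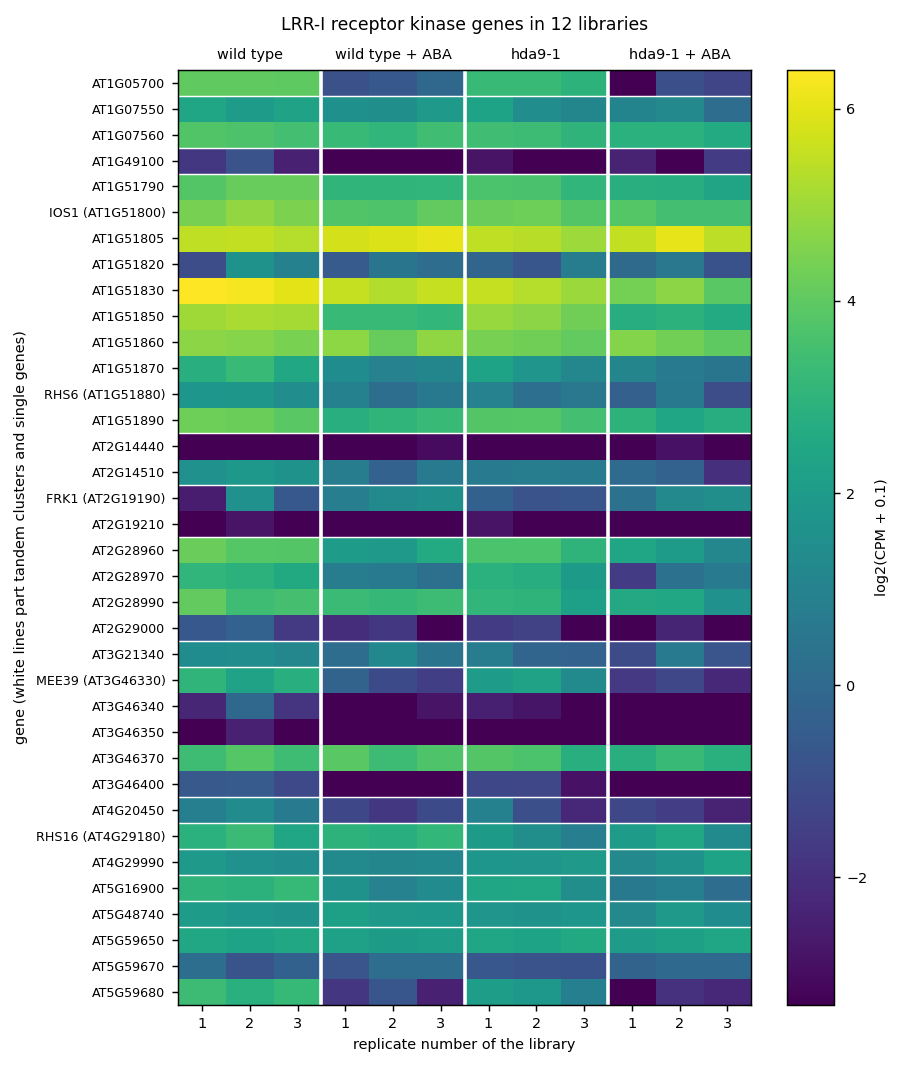
Rows are the 36 members in the count table, parted by white lines into tandem clusters and single genes; columns are the 12 libraries, and colour gives log2(CPM + 0.1), from dark (low) to yellow (high). AT1G51830 and AT1G51805 are the brightest rows, and AT1G05700, AT5G59680 and MEE39 turn dark in the ABA libraries of both genotypes.

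After ABA the family moved down in both genotypes. In wild type 16 of 31 tested members were called lower and 1 higher, where 14.0% of all tested genes were called lower and 17.0% higher. In hda9-1 the counts were again 16 lower and 1 higher, against 18.6% and 23.3% of all genes. The median log2 fold change of the tested members was -0.85 in wild type and -0.83 in hda9-1, beside -0.02 and 0.01 over all tested genes. A call means an adjusted p below 0.05 by the quasi-likelihood test of edgeR. The calls shared 14 members, 14 of 16 in each genotype. RHS6 and AT4G20450 were called lower in wild type alone and AT1G07550 and AT1G07560 in hda9-1 alone. With the trends of counts with gene length and GC content removed, hda9-1 had 13 lower and 2 higher, the second being AT5G59670 (1.11), and IOS1, AT1G07550 and AT1G07560 were no longer called there. Without replicates 1 and 3 of hda9-1 with ABA, in which long genes were low, hda9-1 had 9 lower and 1 higher, and without replicate 2 it had 17 lower and 0 higher. AT1G05700 was then at -4.38 and -5.81 in hda9-1, AT5G59680 at -4.28 and -5.77 and MEE39 at -3.52 and -4.55. Since the family was chosen with ABA results in view, these counts support nothing beyond the values themselves.

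AT5G59680 and AT1G05700 had the deepest decreases among the members above 1 CPM. AT1G05700 stood at 16.4, 16.4 and 15.8 CPM in wild type without ABA and at 0.427, 0.545 and 0.856 CPM with ABA. In hda9-1 it went from 9.48, 9.47 and 7.71 CPM to 0, 0.425 and 0.309 CPM. Every library with ABA was far below every library without it, and the log2 fold change was -4.72 ± 0.41 (SE) in wild type and -5.13 ± 0.45 in hda9-1. AT5G59680, in the chromosome 5 cluster, had 9.98, 7.18 and 9.08 CPM in wild type and 0.190, 0.506 and 0.0835 CPM after ABA. Its hda9-1 libraries held 4.26, 3.59 and 1.75 CPM without ABA and 0, 0.162 and 0.110 CPM with it. The groups did not overlap in either genotype, and the log2 fold changes were -5.03 ± 0.55 and -5.05 ± 0.64. Its cluster neighbours were not called: AT5G59650 gave -0.34 ± 0.17 in wild type and -0.23 ± 0.16 in hda9-1, and AT5G59670 gave 0.18 ± 0.41 and 0.86 ± 0.43.

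MEE39 showed a decrease of the same kind. Its wild-type values were 8.09, 4.77 and 6.94 CPM without ABA and 0.760, 0.351 and 0.251 CPM with ABA. In hda9-1 they were 4.09, 4.76 and 2.35 CPM and then 0.208, 0.324 and 0.110 CPM. The log2 fold changes were -3.88 ± 0.41 and -4.09 ± 0.45, again with no overlap between groups. AT3G46400, in the same cluster, had 75 counts over the wild-type libraries without ABA and 0 with ABA, which is at least 24.7-fold lower when 3 counts over the group serve as the floor. In hda9-1 it went from 32 counts to 0, at least 10.7-fold lower. AT3G46340 between them was not tested, with 56 counts over wild type without ABA and 2 with ABA, a ratio of 27.6 (exact 95% interval 7.29 to 234, counting error only). Of its 56 counts 42 came from replicate 2. The interval treats counts as independent, while every count of this gene was even, so it may be too narrow.

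Several further members fell by smaller amounts. AT1G51850 was tightly reproducible, at 32.1, 36.4 and 33.8 CPM in wild type against 9.19, 9.43 and 8.66 CPM with ABA. The log2 fold change was -1.91 ± 0.14 in wild type and -1.91 ± 0.14 in hda9-1, where the values went from 30.0, 26.0 and 19.7 CPM to 6.60, 7.47 and 6.04 CPM. AT2G28970 fell by 2.37 ± 0.42 on the log2 scale in wild type and by 2.64 ± 0.44 in hda9-1. AT2G28960 beside it had log2 fold changes of -1.77 ± 0.29 and -1.51 ± 0.29, and AT1G51870 of -1.74 ± 0.30 and -1.10 ± 0.30. AT4G20450 had a log2 fold change of -2.70 ± 0.73 in wild type, where it was called, and of -1.85 ± 0.75 in hda9-1, where it was not. Its hda9-1 libraries without ABA ranged from 0.120 to 1.84 CPM and overlapped those with ABA.

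IOS1 and FRK1 were introduced above for immune signalling, and the other members were not sorted by such a role. After ABA IOS1 was called lower and FRK1 was not called. IOS1 had 21.1, 28.4 and 22.5 CPM in wild type without ABA and 13.4, 13.2 and 16.5 CPM with ABA, with no overlap. Its log2 fold change was -0.74 ± 0.15, and -0.45 ± 0.15 in hda9-1, where one library with ABA overlapped those without. The hda9-1 call was lost with the length and GC trends removed (-0.23), without hda9-1 with ABA replicate 2 (-0.40) and without replicates 1 and 3 (-0.57). FRK1 gave 0.0721, 2.94 and 0.541 CPM in wild type without ABA, and 1.71, 2.36 and 2.78 CPM with ABA. Replicate 2 without ABA lay above every ABA library while the other two lay below them, and the log2 fold change of 0.96 ± 0.80 was not called. Without that library it was 2.93 ± 0.62 and called. In hda9-1 FRK1 went from 0.703, 0.460 and 0.502 CPM to 1.18, 2.27 and 2.69 CPM with no overlap, and the log2 fold change of 1.88 ± 0.85 was not called. Leaving out wild type without ABA replicate 1 or 2, which are not part of that contrast but of the shared estimate of spread, brought it past the threshold at 1.86 ± 0.52 and 1.88 ± 0.49.

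AT1G51805 alone was called higher after ABA. It had 44.9, 45.7 and 39.9 CPM in wild type without ABA and 55.5, 59.3 and 66.2 CPM with ABA, with no overlap and a log2 fold change of 0.47 ± 0.15. In hda9-1 the values were 44.7, 40.7 and 31.3 CPM and then 45.5, 65.2 and 43.4 CPM, which overlapped, and the log2 fold change was 0.40 ± 0.15. In hda9-1 it was 0.74 ± 0.16 without replicates 1 and 3 of the ABA group and 0.18, not called, without replicate 2. Its calls held in 7 and 3 of 12 fits that left out 1 library. RHS16 gave 0.05 ± 0.31 in wild type and 0.53 ± 0.32 in hda9-1, neither called. The other root-hair-named member, RHS6, had a log2 fold change of -1.15 ± 0.38 in wild type and was called there. In hda9-1 RHS6 gave -0.78 ± 0.40 and was not called.

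**Figure D2:**
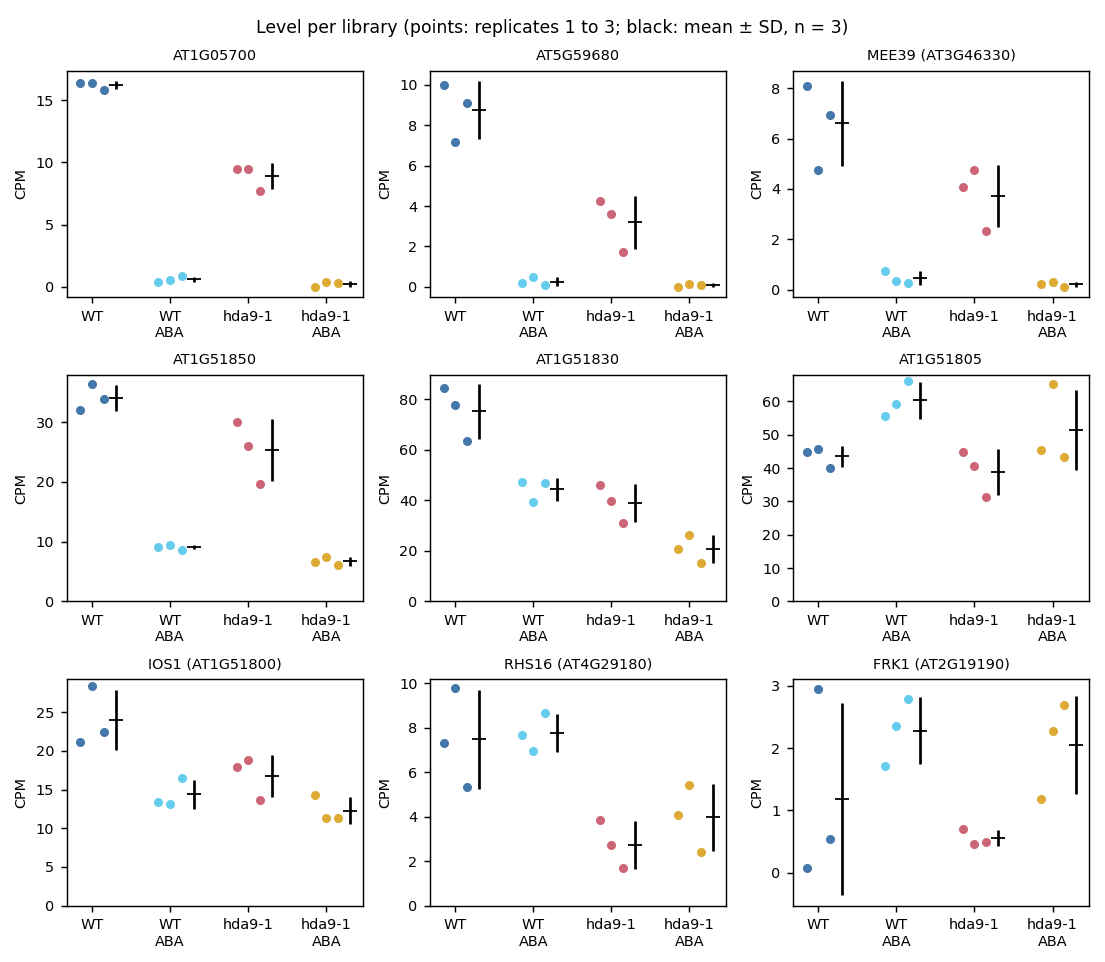
CPM of 9 members by group on linear axes, with points for replicates 1 to 3 and black marks for the mean ± SD (n = 3). AT1G05700, AT5G59680 and MEE39 lie below 1 CPM in every ABA library, within each condition the RHS16 points of hda9-1 lie below those of wild type, and FRK1 has one wild-type library without ABA at 2.94 CPM.

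In hda9-1 without ABA, 9 of 31 tested members were lower than in wild type and 0 were higher, where 6.57% of all tested genes were called lower and 6.98% higher. The median log2 fold change of the tested members was -0.82, beside -0.04 over all genes, and 29 of 31 lay below 0. Of the 31, 16 had an unadjusted edgeR p below 0.05, beside 5989 of all 20924 tested genes. This comparison shares the wild-type libraries without ABA with the ABA comparison in wild type, so that their values are only set side by side. A family selected for low ABA values against those libraries can lie below 0 here as well. The calls without ABA and the count below 0 are therefore not independent of that selection. AT3G46400 and AT2G29000 had most of their counts in those libraries. Both are in the 29 and in the median, and their values below 0 are no support. In these seedling samples, fewer cells of a type and less RNA per cell cannot be told apart.

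AT1G51830, the most abundant member, was lower in the mutant in both conditions. It had 84.7, 77.8 and 63.4 CPM in wild type and 46.2, 39.8 and 31.0 CPM in hda9-1 without ABA. With ABA it had 47.4, 39.2 and 46.8 CPM in wild type and 20.6, 26.3 and 15.1 CPM in hda9-1. The genotypes did not overlap in either condition. The log2 fold change was -0.95 ± 0.19 without ABA (edgeR adjusted p = 0.0077) and -1.10 ± 0.19 with ABA (edgeR adjusted p = 0.0046). Both calls held in 12 of 12 fits that left out 1 library, but the call with ABA was lost without hda9-1 with ABA replicates 1 and 3 together (-0.76 ± 0.22, edgeR adjusted p = 0.098).

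RHS16 fell from 7.31, 9.79 and 5.36 CPM in wild type to 3.84, 2.71 and 1.69 CPM in hda9-1 without ABA. All mutant libraries lay below all wild-type ones, and the log2 fold change was -1.45 ± 0.32 (edgeR adjusted p = 0.010, called in 12 of 12 fits without 1 library). With ABA, wild type held 7.69, 6.95 and 8.66 CPM and hda9-1 4.08, 5.41 and 2.43 CPM. Those groups did not overlap either, and the log2 fold change of -0.96 ± 0.31 missed the threshold (edgeR adjusted p = 0.057). It passed without hda9-1 with ABA replicate 2 (-1.28, edgeR adjusted p = 0.017) and was -0.52 ± 0.39 (edgeR adjusted p = 0.53) without replicates 1 and 3. RHS6 had 3.39, 3.42 and 2.64 CPM in wild type and 1.88, 1.08 and 1.40 CPM in hda9-1 without ABA. Its log2 fold change of -1.11 ± 0.38 also missed the threshold (edgeR adjusted p = 0.064). With the length and GC trends removed it was -1.23 and called (edgeR adjusted p = 0.029).

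Markers of root hairs moved with this contrast. In hda9-1 without ABA, 15 of 16 root hair genes had an unadjusted edgeR p below 0.05, beside 5989 of all 20924 tested genes. Of the 16, 5 were called lower and 0 higher, and their median log2 fold change was -1.57. Their summed level ran from 156 to 255 CPM in wild type and from 27.6 to 111 CPM in hda9-1 without ABA, and from 124 to 166 and 57.8 to 99.0 CPM with ABA. None of the 16 was at 0 in any group. RHD2, the root hair NADPH oxidase, was lower without ABA (-0.93 ± 0.18, edgeR adjusted p = 0.0047) and with ABA (-0.61 ± 0.18, edgeR adjusted p = 0.039). With ABA RHD2 was the one root hair gene called, and the median of the list was -0.92. Other root genes gave 2 lower of 9 without ABA, with a median log2 fold change of -0.49, SHR at 0.02 and SCR at 0.01. Their sum ran from 287 to 342 CPM in wild type and from 185 to 292 CPM in hda9-1. Most of it was IRT1, with a mean of 192 of 320 CPM in wild type and 133 of 238 CPM in hda9-1. IRT1 itself was not called (-0.53 ± 0.37, edgeR adjusted p = 0.4). With ABA 1 of the 9 was lower. The 8 leaf genes had median log2 fold changes of 0.00 without and -0.02 with ABA, and edgeR called 0 of them. An unadjusted p below 0.05 was reached by 0 and 4 of them, beside 5989 and 6135 of all 20924 tested genes. The part of root hair content in the lower receptor levels was not tested.

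The remaining calls without ABA were smaller or less stable. AT5G59680, 9.98, 7.18 and 9.08 CPM in wild type and 4.26, 3.59 and 1.75 CPM in hda9-1, had a log2 fold change of -1.45 ± 0.44 (edgeR adjusted p = 0.044). AT1G51870 gave -1.07 ± 0.29 (0.023), AT2G28990 -0.91 ± 0.27 (0.041) and AT5G16900 -0.85 ± 0.27 (0.045), with edgeR adjusted p in parentheses. AT1G51790 gave -0.58 ± 0.16 (0.029), IOS1 -0.52 ± 0.15 (0.035) and AT1G51850 -0.43 ± 0.13 (0.040), likewise from edgeR. No mutant library of these 7 genes reached the lowest wild-type one, but the same held for uncalled members, AT1G07560 and AT1G51860 among them. The share over all tested genes was not counted, so this gap is no support for the calls. The calls of the 7 genes held in 4 to 9 of 12 fits that left out 1 library. With the length and GC trends removed, all 9 members stayed called, and RHS6 (-1.23) and AT1G07560 (-0.44) were called lower too. The count of 9 members fell to 5 without wild type without ABA replicate 1, to 2 without its replicate 2 and to 3 without its replicate 3. It was 12 without hda9-1 with ABA replicate 2, 5 without the wild-type ABA replicate 1, and 5 and 2 without hda9-1 replicates 2 and 3 that had no ABA.

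With ABA, 2 of 31 members were lower in hda9-1 and 0 higher, against 5.21% and 7.50% of all tested genes. The count of lower members was thus near the share of all genes. The tested members had a median of -0.46, beside 0.01 over all genes. AT2G28990 was the second of them besides AT1G51830, with 9.71, 8.84 and 10.2 CPM in wild type and 5.81, 5.67 and 2.93 CPM in hda9-1. Its groups did not overlap, and it was 1.99-fold lower (SE of the log2 fold change 0.28, edgeR adjusted p = 0.032, called in 7 of 12 fits without 1 library). Neither call held without the libraries in which long genes were low. An alternative added after seeing the data left out hda9-1 with ABA replicates 1 and 3. It keeps 1 library in that group and assumes that this library varies like the others. AT1G51830 then stood at -0.76 ± 0.22 and AT2G28990 at -0.76 ± 0.34. Without replicate 2, which keeps only those libraries in the group, 13 tested members were lower, RHS16, RHS6 (-1.40) and AT1G51850 (-0.55) among them. The low-count gene AT1G49100 was higher, a total of 14, and the share of all genes in that fit is not given here. The count was 6 and 7 without replicates 1 and 3 of hda9-1 without ABA, and 1 without any one of the wild-type ABA libraries or hda9-1 with ABA replicates 1 or 3. After removal of the trends with length and GC content the count of lower members was 2.

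**Figure D3:**
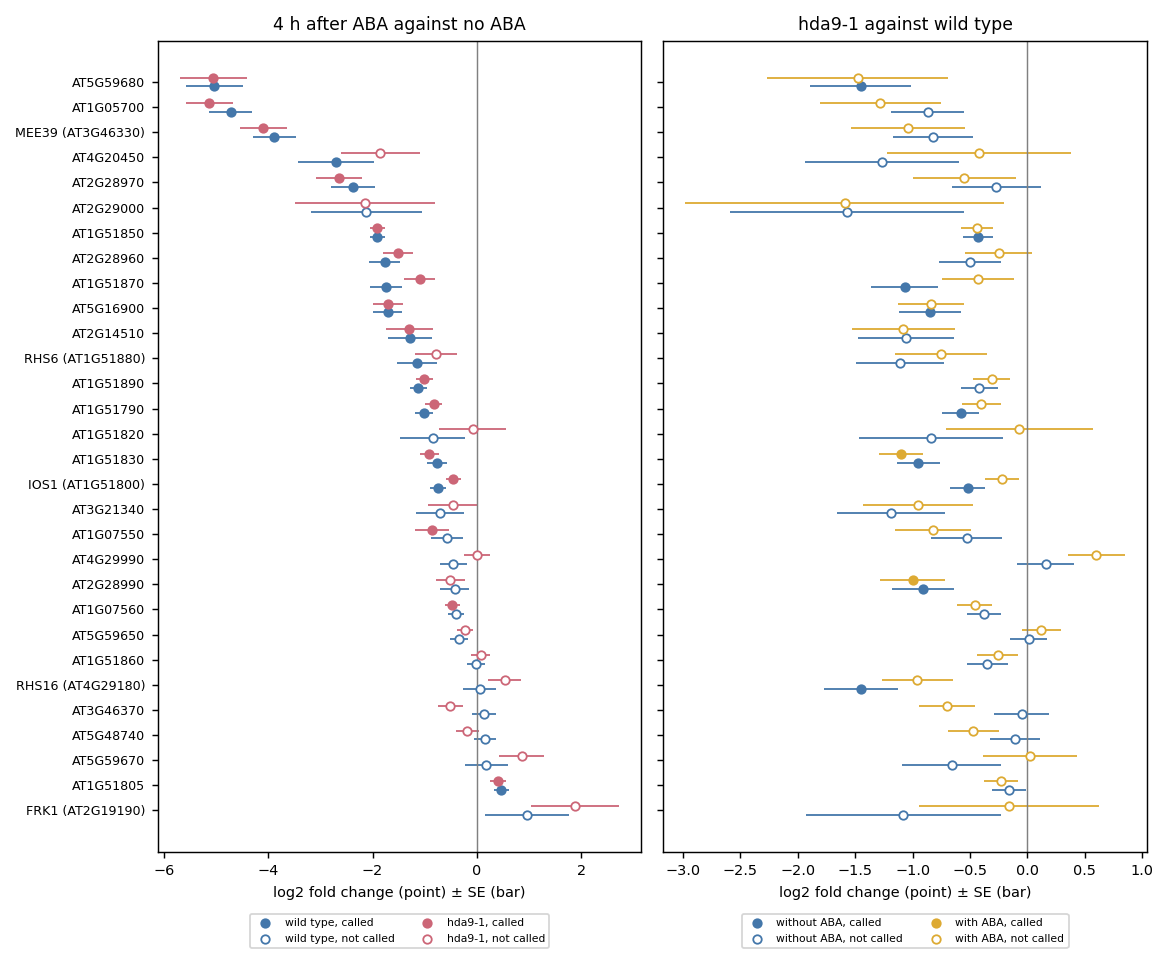
Fitted log2 fold change (point) with its SE (bar) of each tested member other than AT3G46400, for ABA in each genotype (left) and hda9-1 against wild type in each condition (right); filled points passed the test and open ones did not. AT5G59680, AT1G05700 and MEE39 lie furthest left after ABA. Most points of hda9-1 without ABA lie below 0, which is not independent of the selection of the family on ABA values.

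The ABA response itself was not shown to differ between the genotypes for any member. The interaction was called for 0 of 31 members and for 0% of the 20924 tested genes by edgeR. At an unadjusted p below 0.05 it picked 0 members and 2467 genes, and DESeq2 called 129 genes and 0 members. For AT1G05700 the log2 fold changes of the 2 genotypes, -4.72 ± 0.41 and -5.13 ± 0.45, had overlapping standard errors. Without replicate 2 of hda9-1 with ABA, the interaction of AT1G49100 passed the edgeR threshold (adjusted p = 0.020), on 0, 0 and 0 counts in wild type with ABA against 4 and 10 in hda9-1. The summed family level went from 397, 400 and 348 CPM in wild type without ABA to 244, 221 and 262 CPM with it. In hda9-1 it went from 297, 270 and 203 CPM to 175, 202 and 147 CPM. Wild type without ABA was the highest group and hda9-1 with ABA the lowest, and the wild-type ABA libraries overlapped the hda9-1 libraries without ABA.

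**Figure D4:**
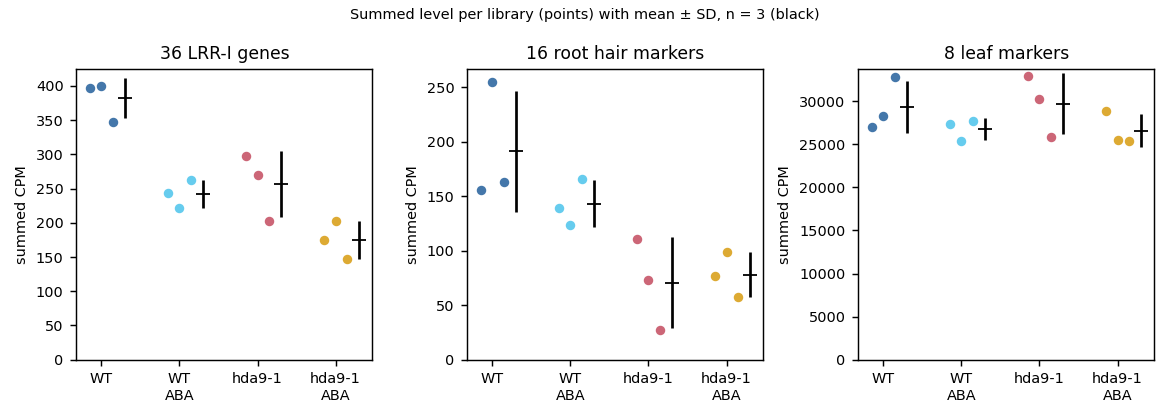
Summed CPM per library of the 36 LRR-I genes, the 16 root hair markers and the 8 leaf markers, by group, with points for libraries and black marks for the mean ± SD (n = 3). The family sum lies between 348 and 400 CPM in wild type without ABA and between 147 and 202 CPM in hda9-1 with ABA, the root hair sums of hda9-1 lie below those of wild type, and the leaf sums overlap.

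Within the chromosome 1 array the members did not move as a block. Of its 10 tested genes, 7 were lower and 1 higher after ABA in wild type, and 6 lower and 1 higher in hda9-1. Over all tested genes, 14.0% were lower and 17.0% higher after ABA in wild type, and 18.6% and 23.3% in hda9-1. hda9-1 was lower than wild type in 5 of the 10 without ABA and in 1 with ABA, against 6.57% and 5.21% of all tested genes. Of those 5 calls only that of AT1G51830 held in 12 of 12 fits that left out 1 library. AT1G51860, between neighbours that fell after ABA, had 24.3 ± 2.37 CPM without and 24.0 ± 5.70 CPM with it in wild type (SD, n = 3), and its log2 fold change of -0.02 ± 0.18 was not called. AT1G51805, which rose, and AT1G51830, which fell by 0.76 ± 0.19 on the log2 scale in wild type, lie in the same array. AT1G51840, a gene annotated as kinase-like between AT1G51830 and AT1G51850 that is not on the list, was lower in hda9-1 without ABA (-0.92 ± 0.15, edgeR adjusted p = 0.0015) and with ABA (-1.13 ± 0.15, edgeR adjusted p = 6e-04). Among 4 tested LRR-I genes outside the list, 2 were lower after ABA in each genotype and 1, AT1G51840, was lower in hda9-1 in each condition. The chromosome 2 cluster from AT2G28960 to AT2G29000 had 2 of 4 tested genes lower after ABA in each genotype.

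**Figure D5:**
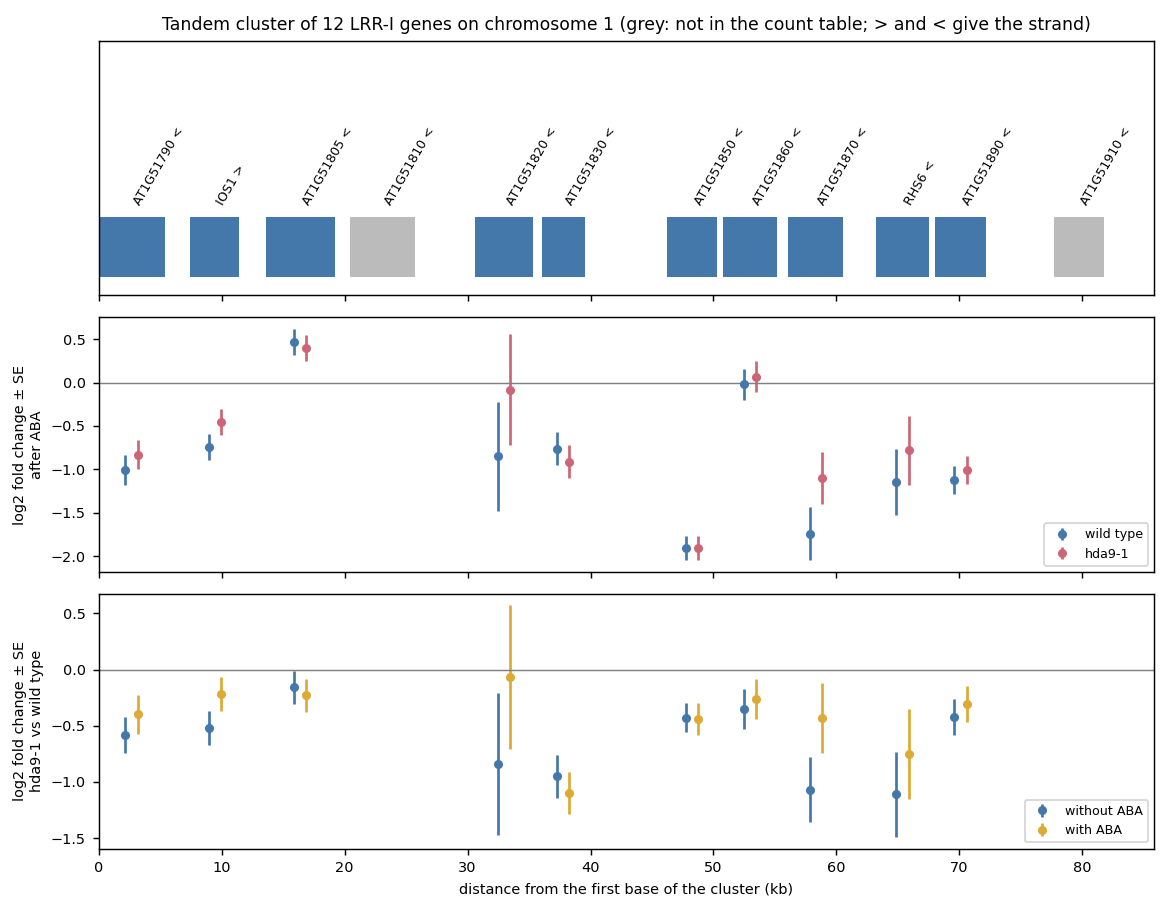
Top, the 12 listed genes of the chromosome 1 array by distance in kb from its first base (grey, not in the table used; arrowheads, strand). Below, log2 fold change ± SE of the 10 tested genes after ABA in each genotype (middle) and in hda9-1 against wild type in each condition (bottom): after ABA AT1G51805 lies above 0, AT1G51860 near 0 and AT1G51850 lowest.

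Other receptors and immune genes were taken from chosen lists, beside the shares of all tested genes given above (17.0% higher and 14.0% lower after ABA in wild type, 23.3% and 18.6% in hda9-1). Of 14 tested CrRLK1L kinases, which also carry malectin-like domains and include cell-wall sensors, 4 were higher and 0 lower in wild type, and 3 were higher and 3 lower in hda9-1. AT5G39030 was the largest increase of them, with a log2 fold change of 1.56 ± 0.19 in wild type and 1.25 ± 0.19 in hda9-1. Between genotypes 1 of the 14 was lower without ABA and 2 with ABA. Of 26 genes of pattern-triggered immunity, 4 were higher and 3 lower after ABA in wild type and 4 higher and 8 lower in hda9-1. The wild-type counts of the immunity list were near those shares. WRKY53, a transcription factor, rose by 2.00 ± 0.35 and 2.52 ± 0.38 on the log2 scale in wild type and hda9-1, while RBOHD, the NADPH oxidase of the immune oxidative burst, fell by 1.15 ± 0.10 and 1.21 ± 0.11. In hda9-1 against wild type, 2 were higher and 3 lower without ABA (6.98% and 6.57% of all genes), and 2 higher and 5 lower with ABA (7.50% and 5.21%). FLS2, the flagellin receptor, was lower in both (-0.60 ± 0.14, edgeR adjusted p = 0.012, and -0.66 ± 0.14, edgeR adjusted p = 0.0075). The medians of the immunity list lay between -0.20 and 0.01 in the 4 comparisons, and those of the CrRLK1L list between -0.19 and 0.05.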

How the data were processed

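The 12 samples are whole seedlings of 4 groups of 3, sequenced in 75 bp reads from a stranded poly(A) kit, per the labels' protocols. The authors deposited 1 table of raw counts per gene. The submitters' processing notes name Bowtie2, Salmon, limma 3.56 and the build TAIR10, without saying which tool made the counts. Among counts of 1 to 12, 76.2% were even. The reason was not tested, and intervals treat counts as independent. Groups were read from sample titles.

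Counts were filtered (filterByExpr, minimum count 10, total 15), scaled by TMM and fitted with the robust quasi-likelihood test of edgeR 4.0.16 (R 4.3.3) to all 12 libraries, with 4 group means and 5 contrasts. Adjustment was Benjamini-Hochberg over 20924 genes, at 0.05, after a check on simulated counts. A standard error is the fold change divided by the root of F. CPM uses TMM library sizes. DESeq2 1.42.0 and other settings were alternatives. Coding sequences were aligned with mafft 7.526. Identifiers matched TAIR10.1 for 23655 genes. Members and lists were chosen with earlier results of these data known. The text names HDA9, the named receptors, members called between genotypes, the 8 deepest ABA changes at or above 1 CPM, and a few list genes with the smallest p. Others in the arrays were chosen after their values were seen. Protein features were not run.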

Additional observations from a re-analysis of the deposited data

How the results depend on the processing

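Member counts for ABA stayed within 1.5 times the reported 17 in each genotype with any other scaling, filter or tool and with any 1 library left out, and no fold change of a called member turned its sign under any alternative run. The count lower in hda9-1 without ABA (9) ranged from 2 to 12 when 1 library was left out. That with ABA (2) was 4 with upper-quartile scaling, 7 with DESeq2 and 1 to 14 with 1 library left out, and the interaction count (0) was 0 to 1, the 1 being AT1G49100 without hda9-1 with ABA replicate 2 (adjusted p = 0.020). Leaving out hda9-1 with ABA replicates 1 and 3 together, chosen after seeing the data, gave 10 for ABA in hda9-1 (17 otherwise), 0 for genotype with ABA and counts within 1.5 times elsewhere. The cause was not tested. Replicate numbers did not pair the samples, with correlations of same-numbered deviations from -0.153 to 0.121. With replicate as a block the counts were 17 and 16 for ABA, 8 and 4 for genotype, and 0 for the interaction. A gap of 20 kb gave 6 clusters in place of 7. Members under about 10 counts per library are limited by depth.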
